A study of Arabidopsis thaliana with 11 samples.

Results

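Shoots of all transgenic Arabidopsis thaliana seedlings of the series, whichever construct they carried, were set against wild type shoots, to ask which transcripts were changed by both constructs and in every line. The arrays were chosen by their titles: 8 titled with a 35S construct and 3 titled wild type, which together are 11 of the 11 arrays of the series. The 8 transgenic arrays comprised 2 replicates each of 4 independent lines, 35S::AtNF-YB lines 3 and 6 (homozygous, AtNF-YB1 in the series text) and 35S::CBF4 lines 10 and 19, and the wild type was Col-0. All seedlings were grown for 14 days on upright plates of MS medium under 24 h of light per day, and each array held a pool of about 24 shoots, separated from the roots. No group carried an empty vector, so the insertion of a transgene and the expressed factor cannot be told apart in these samples.

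The 35S promoter of cauliflower mosaic virus is active in nearly all plant cells, so a line driven by it makes the factor outside its usual place and time. AtNF-YB1 is a subunit of NF-Y, a heterotrimer that binds the CCAAT box of many promoters and has been linked to drought tolerance. CBF4 belongs to the CBF/DREB1 group, whose members bind the C-repeat element of promoters that answer to cold or drought.

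Values are quantile normalised log2 intensities with a floor of 0.93 log2, under which no level was read. Differences are transgenic minus wild type, averaged over the 4 lines, with the standard error of that mean from a limma fit. That standard error and its p rest on the spread between arrays within a group. They leave out the spread between lines. A probe set passed where its Benjamini-Hochberg adjusted p over all 19374 probe sets was below 0.05. Array medians of the deposited intensities lay between 9.24 and 22.7 units. In the normalised values every wild type array correlated best with an AtNF-YB array (r = 0.975 to 0.98 across probe sets, which are not independent), so the wild type arrays did not stand together apart from the transgenic ones. The light-harvesting gene LHB1B2 read 10.75 to 11.02 log2 and the photosystem I gene PSAE-1 10.8 to 11.06 over all 11 arrays. PYK10, a beta-glucosidase gene strongest in roots, read 7.66 to 8.88 on wild type and 7.58 to 8.69 on transgenic arrays. The sum of the 5 measured photosynthesis markers was 8050 to 8480 intensity units on wild type and 8320 to 8920 on transgenic arrays, and that of the 2 measured root markers 217 to 493 and 201 to 427.

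The transgenes were followed through probe sets for 3′ ends that plant vectors commonly carry. The NOS 3′ end, from the nopaline synthase gene of Agrobacterium, read 705 and 285 intensity units as deposited on AtNF-YB line 3, 463 and 332 on line 6, 248 and 154 on CBF4 line 10, and 420 and 340 on line 19. On wild type it read 0.498, −0.437 and 52.3 units for replicates 1, 2 and 3. All 8 transgenic arrays lay above all 3 wild type arrays. The exact permutation test over the 165 ways to choose 3 arrays of 11 gave a two-sided p = 0.00606, the smallest it can give; it treats arrays of a line as independent. The fitted difference was 6.04 ± 0.99 log2 (SE, adjusted p = 0.235 in limma), and it was 7.49 ± 0.26 with adjusted p = 0.00162 when wild type replicate 3 was left out. Replicate 3 was set apart because of its vector signal, so the fit without it is no independent evidence on this probe set. Wild type replicates 1 and 2 were both at the floor of 0.93 log2, so the standard error of 0.26 does not measure their spread. The line coefficients were 6.55, 6.17, 5.15 and 6.29 log2 for AtNF-YB 3, AtNF-YB 6, CBF4 10 and CBF4 19.

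The E9 3′ end, from a pea rbcS gene, did not separate transgenic from wild type arrays. It read 5.88 to 6.71 log2 on 3 AtNF-YB arrays, 0.98 on AtNF-YB line 6 replicate 1, and 8.92 to 9.28 on the CBF4 arrays. Wild type replicates 1 and 2 read 6.67 and 6.9, and replicate 3 read 9.77, the highest of all 11. The difference was −0.7 ± 1.25 log2 (exact two-sided permutation p = 0.709), and 0.3 ± 1.35 without replicate 3. The 35S 3′ end read 0.93 to 2.14 log2 over all arrays, with a difference of 0.49 ± 0.21 (exact two-sided permutation p = 0.2). The NOS signal of the array labelled wild type replicate 3 goes against its label, though at 52.3 units as deposited it was below every transgenic array. E9 was also read on wild type replicates 1 and 2, so E9 signal alone does not go against the label. Probe sets on which replicate 3 did and did not read like the CBF4 arrays are given under the other observations. The array labelled replicate 3 may not be wild type, which the files do not settle. The wild type means below include it unless stated, and the differences of named genes without it are given beside the main ones.

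**Figure D1:**
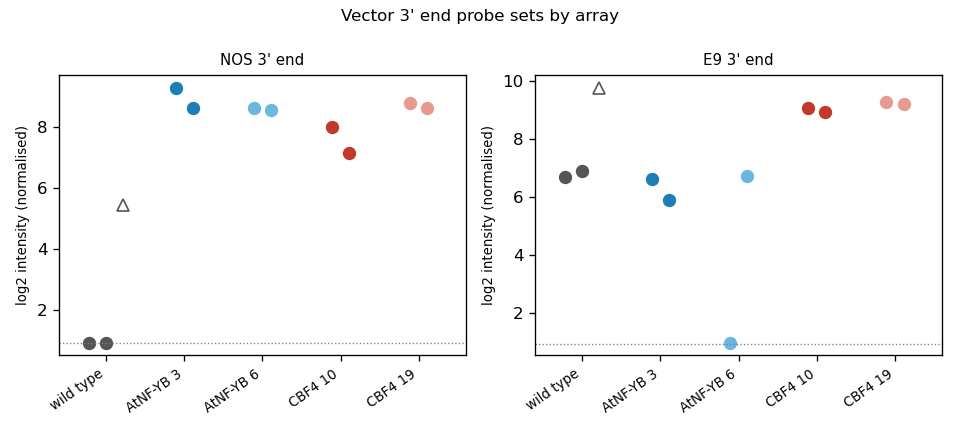
Normalised log2 intensity of the NOS and E9 3′ end probe sets on each of the 11 arrays, by group; filled circles are single arrays, the open triangle is wild type replicate 3, and the dotted line is the floor of 0.93. On NOS the transgenic arrays sit at 7.15 to 9.31 and wild type replicate 3 at 5.44; on E9 wild type replicate 3, at 9.77, lies above the CBF4 arrays.

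Of 19371 plant probe sets 4 passed between all transgenic and wild type shoots, which is 0.0206%; 4 were higher and 0 lower. Only 1 of these, MRT3702_12660C.2_at, which has no gene name in the annotation, was higher in all 4 lines and on each of the 8 transgenic arrays than on any wild type array (0.00516% of probe sets). No gene with a name met all these conditions, and 0 probe sets passed in both constructs, in the same direction, when each was set against wild type on its own (0.0155% and 0.232% of probe sets passed for AtNF-YB and CBF4). At an unadjusted p below 0.05 there were 897 probe sets, 4.63% of those tested.

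All 4 probe sets that passed also differed among the transgenic lines. COR15B, whose product guards chloroplast membranes against freezing damage, read 4.83, 4.82 and 5.63 log2 on the wild type arrays. On the AtNF-YB arrays the same probe set, MRT3702_9983C.2_s_at, read 5.55 and 5.41 for line 3 and 5.51 and 5.67 for line 6. On the CBF4 arrays it read 9.98 and 9.91 for line 10 and 9.7 and 10.05 for line 19. The CBF4 arrays stood far above the others, and the AtNF-YB arrays lay above wild type replicates 1 and 2 but overlapped the array labelled replicate 3. The mean over lines was 2.63 ± 0.19 log2 higher (adjusted p = 0.0254), made of 0.39 and 0.49 in the AtNF-YB lines and 4.85 and 4.78 in the CBF4 lines, and the CBF4 lines exceeded the AtNF-YB lines by 4.37 ± 0.2 with adjusted p = 0.000917 in limma. The second COR15B probe set was 2.44 ± 0.3 higher (adjusted p = 0.103). Both are annotated to the same gene, so they are not independent.

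KIN2, which encodes a small protein induced by cold and abscisic acid, read 8.22, 8.12 and 8.49 log2 on wild type arrays. It read 8.5 and 8.58 on AtNF-YB line 3, 8.26 and 8.5 on line 6, 10.31 and 10.31 on CBF4 line 10, and 10.31 and 10.21 on line 19. The AtNF-YB arrays overlapped wild type while all 4 CBF4 arrays lay above it. The mean over lines was 1.09 ± 0.09 higher, a 2.13-fold difference (adjusted p = 0.0407), with line values of 0.26, 0.1, 2.03 and 1.98.

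MRT3702_12660C.2_at read 6.05, 6.02 and 6.08 log2 on wild type, 6.33 and 6.61 on AtNF-YB line 3, 6.33 and 6.12 on line 6, 9.37 and 9.25 on CBF4 line 10, and 9.89 and 9.4 on line 19. Every transgenic array was above wild type, but the lowest AtNF-YB array by only 0.04 log2. The mean over lines was 1.86 ± 0.12 higher (adjusted p = 0.0254), with line values of 0.42, 0.18, 3.26 and 3.59. The CBF4 lines exceeded the AtNF-YB lines by 3.13 log2 (adjusted p = 0.000623 in limma), so the condition of a shared change was met with unequal sizes. MRT3702_11388C.2_at was the only one of the 4 under the median brightness. It read 1.84 on both AtNF-YB line 3 arrays and 0.93 to 0.96 on all the others, so its mean of 0.23 ± 0.02 came from 1 line. The other arrays were at or near the floor, which hides their spread, so its standard error and p do not measure that spread. Without the floor the difference was 0.99 ± 0.87 log2.

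These calls were sensitive to single wild type arrays. Without wild type replicate 1 the adjusted p was 0.0891 for COR15B, 0.158 for KIN2, 0.0733 for MRT3702_12660C.2_at and 0.0919 for MRT3702_11388C.2_at, and without replicate 2 it was 0.0668, 0.09, 0.0579 and 0.0668. Without replicate 1 only 1 probe set passed and without replicate 2 only 4 did, and 0 of these were among the 4 here. Without the array labelled replicate 3 all 4 passed. The call also ended for COR15B (adjusted p = 0.187 and 0.213) and KIN2 (0.224 and 0.276) without CBF4 line 10 or CBF4 line 19, and for MRT3702_12660C.2_at (0.099) without CBF4 line 10. None of the 4 passed on unscaled values or in fits that ignored the lines or took line as a random block (adjusted p = 0.778 to 1). For COR15B the fit that ignored the lines gave 2.63 ± 1.36 log2, as its spread takes in that between lines. The random-block fit estimated a correlation of −0.141 within groups. That value is negative, so the fit allowed for no likeness between arrays of a line. KIN2 was also lost with centred medians (0.185), a common 75th percentile (0.0828) and no floor (0.131). MRT3702_11388C.2_at was lost in these 3 settings (0.999, 0.158 and 1), and with the higher floor or without AtNF-YB line 3 (1 in both). Over all alternatives run, the call was lost in 7 of 28 for COR15B, 11 of 28 for KIN2, 7 of 28 for MRT3702_12660C.2_at and 11 of 26 for MRT3702_11388C.2_at.

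**Figure D2:**
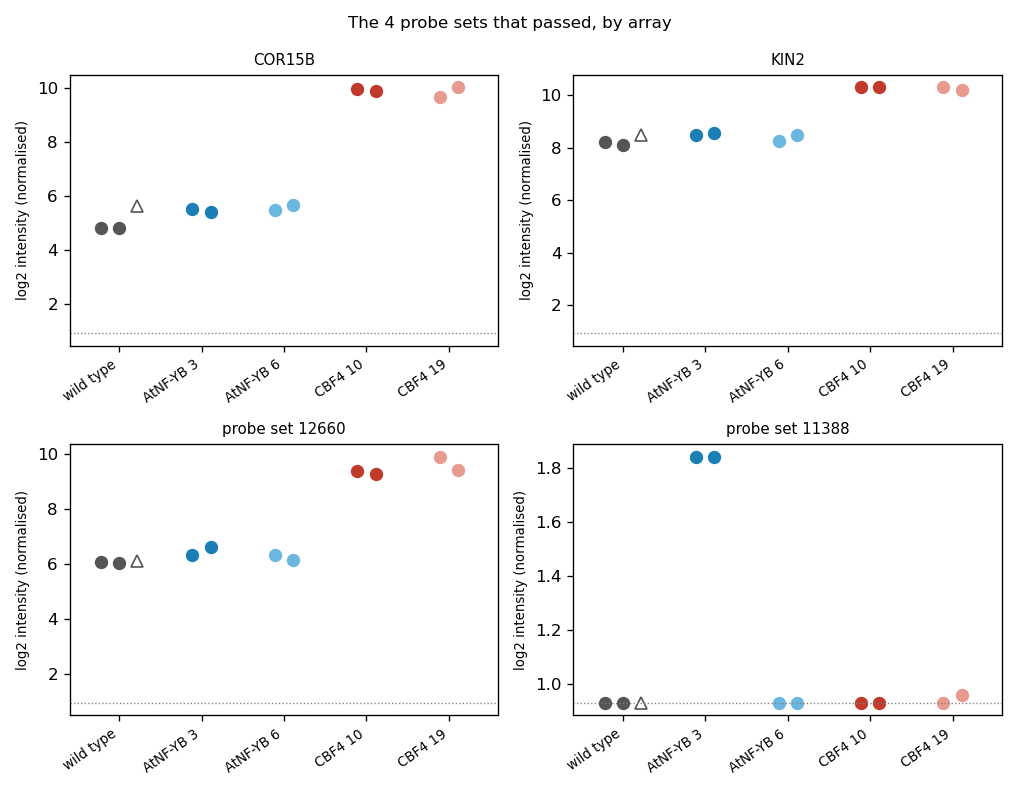
Normalised log2 intensity by array of the 4 probe sets that passed, with filled circles for single arrays, the open triangle for wild type replicate 3 and the dotted line for the floor of 0.93; the vertical scales differ. COR15B, KIN2 and MRT3702_12660C.2_at are high on the 4 CBF4 arrays, and MRT3702_11388C.2_at is above the floor, at 1.84, on AtNF-YB line 3.

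The probe sets in which every transgenic array lay beyond every wild type array gave the candidates for a change shared by all lines. There were 142 of them, 0.733% of those tested, 56 above (0.289%) and 86 below (0.444%), or 4 above and 42 below on unscaled values. On their higher side 94 reached the median brightness, 39 above (0.396% of the 9851 such probe sets) and 55 below (0.558%). Counted over named genes, with 1 probe set a gene, 82 of 11320 lay wholly beyond wild type (0.724%). Their separation was narrow: the median gap between the nearest transgenic and wild type arrays was 0.06 log2, and 19 of 142 differed by over 1 log2 unit. Among the 94 brighter ones the median size was 0.4 log2, and 2 also passed between the constructs. The named genes below are the 10 with the smallest p in each direction among the brighter ones; 0 of the 20 passed, and 0 of the 20 passed without the array labelled wild type replicate 3. They were picked for not overlapping, so that the groups are apart is no finding about them.

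Among the higher ones, AT3G19120 had the smallest p. It read 4.58, 4.62 and 4.66 log2 on wild type, against a lowest of 4.69, a median of 5.06 and a highest of 5.18 on the 8 transgenic arrays. The wild type arrays lay close together, and CBF4 line 19, at 4.72 and 4.69, sat just above them while the other 3 lines were higher. The difference was 0.38 ± 0.04 (adjusted p = 0.0558, and 0.4 ± 0.04 with 0.0955 without the array labelled replicate 3), with 0.5, 0.4, 0.51 and 0.09 in AtNF-YB 3, AtNF-YB 6, CBF4 10 and CBF4 19. It passed in 9 of 28 alternatives: with array weights, with a higher floor, and with any 1 transgenic array left out other than CBF4 line 19 replicate 1 (adjusted p = 0.00662 to 0.0483).

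AT2G40570, annotated as an initiator tRNA phosphoribosyl transferase family gene, read 3.37, 3.84 and 3.5 on wild type and 4.11 to 4.54 on transgenic arrays, with a median of 4.33. Its difference of 0.76 ± 0.1 log2 was the largest of the 10 (adjusted p = 0.142), and the 4 lines gave 0.57, 0.91, 0.77 and 0.81. AT4G31140, of the glycosyl hydrolase family that includes cell wall beta-glucanases, read 4.15, 4.15 and 3.95 on wild type and 4.36 to 5.06 on transgenic arrays, a difference of 0.66 ± 0.1 (adjusted p = 0.181). AT5G58100 read 4.43, 4.42 and 4.44 on wild type and 4.72 to 5.29 on transgenic arrays, a difference of 0.59 ± 0.1 (adjusted p = 0.289). AT5G58100 passed without CBF4 line 10 replicate 2 (adjusted p = 0.0388). With replicate 3 left out the differences were 0.72, 0.59 and 0.59 for AT2G40570, AT4G31140 and AT5G58100. For none of these 3 genes did the difference between constructs pass (adjusted p = 0.465 to 1).

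AT1G65490 was the brightest of the 10, at 9.21, 9.06 and 8.95 log2 on wild type and 9.33 to 9.64 on transgenic arrays, and its line differences of 0.44, 0.4, 0.42 and 0.46 were the closest to each other. The mean was 0.43 ± 0.09 with adjusted p = 0.576 in limma. AT3G62460 had the smallest difference, 0.24 ± 0.03 (adjusted p = 0.181), and was nearer to wild type in the AtNF-YB lines, at 0.11 and 0.1, than in the CBF4 lines, at 0.42 and 0.32. The remaining 4 genes were AT5G24580 at 0.51 ± 0.13, AT3G62000 at 0.4 ± 0.08, AT3G15290, which encodes a 3-hydroxyacyl-CoA dehydrogenase family protein, at 0.38 ± 0.1, and AT1G63240 at 0.31 ± 0.08. Without wild type replicate 3 AT1G65490 was at 0.37, AT3G62460 at 0.25, AT5G24580 at 0.61, AT3G62000 at 0.44, AT3G15290 at 0.45 and AT1G63240 at 0.29. Over the 10 genes the adjusted p ran from 0.0558 to 0.776, and from 0.0955 to 0.84 without that array.

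Among the lower ones, GER2, an enzyme of the synthesis of GDP-L-fucose, a sugar donor for cell wall polymers and glycoproteins, had the smallest p. It read 5.95, 5.82 and 5.94 log2 on wild type, against a lowest of 5.45, a median of 5.59 and a highest of 5.64 on transgenic arrays. The transgenic arrays lay close together, wholly below wild type, and CBF4 line 10 was the lowest. The difference was −0.34 ± 0.04 (adjusted p = 0.0815, and −0.32 ± 0.04 with 0.233 without the array labelled replicate 3), with line values of −0.3, −0.3, −0.46 and −0.31. The test of differences among the 4 lines gave an unadjusted p = 0.0606 in limma. GER2 passed in 3 of 28 alternatives: without AtNF-YB line 3 replicate 1 (adjusted p = 0.0314), without CBF4 line 19 replicate 2 (0.038), and with array weights (0.0432).

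AT1G31550, which encodes a GDSL-type lipase, read 5.87, 5.84 and 5.9 on wild type and 4.87 to 5.78 on transgenic arrays, a difference of −0.44 ± 0.05 (adjusted p = 0.0996). Its AtNF-YB lines were at −0.15 and −0.16 and its CBF4 lines at −0.91 and −0.52, and the constructs differed by −0.56 log2 with adjusted p = 0.0153 in limma. AT3G04210, which encodes a TIR-NBS type protein of the plant resistance gene family, read 5.42, 5.35 and 5.45 on wild type and 3.89 to 5.15 on transgenic arrays. Its difference of −0.88 ± 0.13 was the largest of the 10 (adjusted p = 0.181), with −0.36 and −0.7 in the AtNF-YB lines and −1.23 and −1.25 in the CBF4 lines. In both genes the lowest arrays were CBF4 arrays. AT1G31550 passed without AtNF-YB line 3 replicate 1 (adjusted p = 0.0322) or either CBF4 line 10 array (0.032 and 0.0364), and AT3G04210 without CBF4 line 19 replicate 1 (0.0392). Both were little moved by wild type replicate 3, at −0.42 and −0.86 without it.

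The difference between constructs did not pass for AT3G04210 (adjusted p = 0.154 in limma) or for the remaining lower genes. LHCB4.3, a form of the minor light-harvesting protein CP29 of photosystem II, read 9.4, 9.47 and 9.62 on wild type and 9.11 to 9.36 on transgenic arrays. Its difference was −0.24 ± 0.06 (adjusted p = 0.633), with −0.23, −0.17, −0.36 and −0.2 in the lines. TBL45, of a family whose characterised members acetylate cell wall polysaccharides, was −0.4 ± 0.09 from wild type, and AT3G24670, a pectin lyase-like protein gene, −0.45 ± 0.08. AT1G50590, AT1G58280, AT3G62790 and AT4G16695 were −0.51 ± 0.12, −0.42 ± 0.11, −0.3 ± 0.07 and −0.29 ± 0.07 from wild type. AT3G24670 passed without CBF4 line 19 replicate 1 (adjusted p = 0.0442) and AT1G50590 without CBF4 line 19 replicate 2 (0.0323). Without wild type replicate 3 LHCB4.3 was at −0.18, TBL45 at −0.34, AT3G24670 at −0.41, AT1G50590 at −0.55, AT1G58280 at −0.46, AT3G62790 at −0.32 and AT4G16695 at −0.23. Over the 10 genes the adjusted p ran from 0.0815 to 0.773, and from 0.233 to 0.739 without that array. Of the 20 genes in both directions 15 were further from wild type in the CBF4 mean than in the AtNF-YB mean. The same held for 90 of all 142 probe sets that did not overlap and for 61 of the 94 brighter ones. This lean was thus not particular to the 20.

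**Figure D3:**
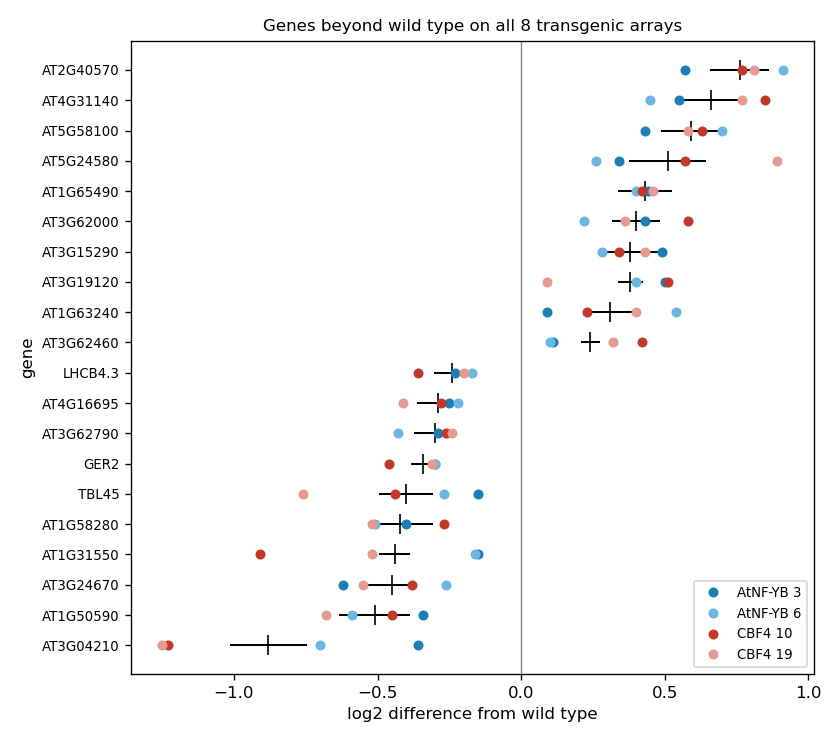
Log2 difference from wild type of the 20 named genes that lay beyond wild type on all 8 transgenic arrays. Coloured points are the 4 lines and the black tick is their mean. The black bar is its standard error, which leaves out the spread between lines. The line values of GER2 run from −0.46 to −0.3 and those of AT1G65490 from 0.4 to 0.46, while AT3G04210 and AT1G31550 are lowest in the CBF4 lines.

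Gene lists for hormone, stress, pigment, cell wall and photosynthesis genes, and gene families by name, held 163 genes measured under a name in 29 lists. Of these 1, KIN2, was higher after adjustment over all probe sets and 0 were lower in limma; at an unadjusted p below 0.05, 8 were higher and 17 lower, 15.3% of the 163 against 4.51% of all 11320 named genes. The lists were chosen with earlier results on these arrays known, so their share is no independent evidence. The median difference over all named genes was 0 log2 with and without wild type replicate 3, and −0.13 on the values as deposited without scaling.

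The CBF regulon, the cold-inducible genes under C-repeat elements, had 7 measured members, of which 1, KIN2, passed and 6 were higher at an unadjusted p below 0.05. COR15B was counted here by its other probe set, which did not pass. The median difference of the list was 1.95 log2, and 1.58 without wild type replicate 3. COR15A was at 2.27 ± 0.28, KIN1 at 2.01 ± 0.27, AT1G16850 at 1.95 ± 0.61 and the dehydrin gene COR47 at 0.66 ± 0.17, with adjusted p = 0.108 to 0.87; without that array they were at 2.05, 1.98, 1.58 and 0.63. In the AtNF-YB lines these 4 were at −0.03, −0.41, −0.25 and −0.05 from wild type, and in the CBF4 lines at 4.56, 4.42, 4.15 and 1.37. The difference between constructs passed for COR15A, KIN1 and COR47 and not for AT1G16850 (adjusted p = 0.0728).

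The jasmonate list had 5 measured members, of which 0 passed and 4, all defensin genes, had an unadjusted p below 0.05. PDF1.2, a marker of the joint jasmonate and ethylene response, read 9.25, 9.24 and 9.93 log2 on wild type and 7.49 to 9.23 on transgenic arrays, with a median of 8.73. All 8 transgenic arrays lay below wild type, the nearest by 0.01, and the difference was −1 ± 0.28 (adjusted p = 0.777). PDF1.2b, PDF1.3 and PDF1.2c were at −1.27 ± 0.33, −1.26 ± 0.34 and −1.25 ± 0.35. For PDF1.2b wild type replicate 3 was the highest of the 3, at 10.08 against 9.37 and 8.66, and without it the difference was −0.91. Without it PDF1.2, PDF1.3 and PDF1.2c were at −0.76, −0.88 and −0.92. These genes are close copies whose probe sets may share signal. The thionin gene THI2.1 was at 0.01 ± 0.2, and at 0.21 without it.

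Of the 14 genes of the anthocyanin list, chosen with earlier results known, only 2 were measured. Both lay below wild type on all 8 transgenic arrays, where 0.724% of all 11320 named genes lay wholly beyond wild type in either direction. DFR, which makes leucoanthocyanidins, read 6.7, 6.5 and 6.53 log2 on wild type and 5.55 to 6.43 on transgenic arrays, with a median of 5.94. UF3GT, which adds a sugar to the pigment, read 5.48, 5.34 and 4.99 on wild type and 4.1 to 4.88 on transgenic arrays, with a median of 4.66. Neither passed, at −0.65 ± 0.18 and −0.68 ± 0.19 (adjusted p = 0.777 for both), and neither did in any of 28 alternatives. Leaving out wild type replicate 3 put them at −0.67 and −0.81. The line values were −0.83, −0.75, −0.4 and −0.63 for DFR and −0.75, −0.7, −0.47 and −0.78 for UF3GT, and the test among lines gave unadjusted p = 0.461 and 0.69 in limma. UGT78D2 and UGT78D1, flavonoid genes counted below with the UDP-glycosyltransferases, were at −0.05 ± 0.1 and −0.17 ± 0.11, and at −0.11 and −0.3 without replicate 3. Their transgenic arrays, at 7 to 7.5 and 6.75 to 7.07 log2, overlapped wild type, at 7.14 to 7.38 and 6.84 to 7.3.

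Of the 9 light-harvesting and photosystem genes 0 passed, and the list had a median of 0.03 log2 with and without wild type replicate 3 that was −0.02 on unscaled values. The lectin list had 6 measured members between −0.76 and −0.19, of which 0 passed. Its median was −0.26 with all arrays and −0.58 without wild type replicate 3, where JAL34 went from −0.28 to −0.58 and JAL22 from −0.22 to −0.58. By construct, with all arrays, the median was −0.04 in the AtNF-YB lines and −0.58 in the CBF4 lines. JAL23, a jacalin-related lectin gene, read 6.02, 6.23 and 5.95 on wild type and 4.18 to 5.93 on transgenic arrays, a difference of −0.76 ± 0.22 (adjusted p = 0.835) that was −0.81 without replicate 3. XTH33, of the enzymes that cut and rejoin xyloglucan in the wall, was dim, at 2.61, 2.14 and 2.21 on wild type and 0.93 to 1.72 on transgenic arrays, a difference of −0.95 ± 0.17 (adjusted p = 0.301) that was −0.99 without replicate 3. None of the 5 genes of that enzyme family passed (limma), and 1 was at the floor on all arrays.

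In the larger families 0 members passed. The 41 UDP-glycosyltransferases had a median of 0, from UGT72E2, which acts on monolignols, at −0.85 ± 0.26 to UGT72B3 at 0.75 ± 0.19. The 22 cytochrome P450 genes had a median of −0.09 with CYP71B36 at −0.75 ± 0.25. The 14 expansins, which loosen cell walls, had a median of 0.09. Their EXLA2 was at 0.46 ± 0.19, made of −0.07 in the AtNF-YB and 0.99 in the CBF4 lines, and at 0.26 without wild type replicate 3. The 9 glutathione transferases had a median of −0.1 with GSTU26 at −0.46 ± 0.19, and the 9 WRKY factors one of −0.1 with WRKY53 at −0.42 ± 0.16. Without wild type replicate 3 UGT72E2, UGT72B3, CYP71B36, GSTU26 and WRKY53 were at −0.99, 0.86, −0.86, −0.38 and −0.51, and the family medians, in the order named, were −0.08, −0.13, 0.1, −0.01 and −0.34. Of the 3 sulfate assimilation genes APS4 was at 0.42, with wild type replicate 3 at 5.76 log2 against 6.96 and 7.1 on the other wild type arrays, and at 0 without it. SIR, the sulfite reductase, was at −0.19, and at −0.46 without it. APS3, an ATP sulfurylase, differed between constructs by −0.77 log2 (adjusted p = 0.0422 in limma) with a mean over all lines of −0.23 ± 0.09, and −0.25 without replicate 3. On unscaled values the medians of the UDP-glycosyltransferases and expansins were −0.14 and −0.07.

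**Figure D4:**
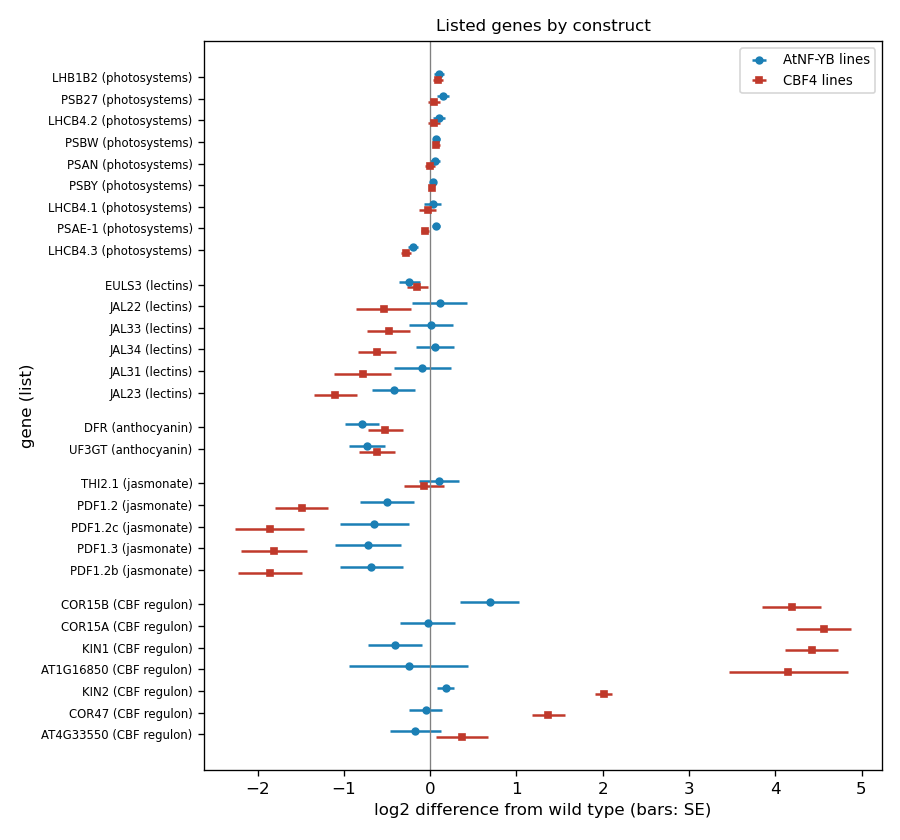
Log2 difference from wild type of each measured member of 5 gene lists, for the mean of the AtNF-YB lines (circles) and of the CBF4 lines (squares). Bars are 1 standard error, which leaves out the spread between lines. Both means use the same wild type arrays. The CBF regulon genes COR15A and KIN1 are at −0.03 and −0.41 in the AtNF-YB lines and at 4.56 and 4.42 in the CBF4 lines, and DFR and UF3GT are below 0 in both.

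Leaving out wild type replicate 3 gave 18 probe sets that passed (0.0929%), 10 higher (0.0516%) and 8 lower (0.0413%), among them the 4 above. Of these 18, 14 were the same way in all 4 lines and on all 8 transgenic arrays against wild type replicates 1 and 2, where 1.35% and 1.85% of all probe sets lay wholly above or below. Only 6 of the 18 reached the median brightness. Of the 10 higher ones 7 also differed between the constructs in the main fit, as 0.31% of plant probe sets did. Of the 8 lower ones 6 had at least 6 transgenic arrays at the floor. The array left out lay within the transgenic range for 7 of the 10 higher and 6 of the 8 lower ones. Probe sets that pass only once an array is left out tend to be those where that array lies nearer the other group. These counts are therefore partly built in, and no share over all probe sets was set beside them.

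MRT3702_8076C.2_at, which has no gene name, gave nearly equal differences in the 4 lines. As deposited it read 0.674, 1.66 and, for replicate 3, 5.26 intensity units in wild type and 3.9 to 9.47 in the transgenic shoots. In normalised values wild type was at 0.93, 1.03 and 2.33 log2 and the 8 transgenic arrays at 2.86 to 3.15. The array labelled replicate 3 lay between the other wild type arrays and the transgenic ones, as it did on the NOS probe set. The difference was 1.56 ± 0.3 (adjusted p = 0.355) with all arrays and 1.98 ± 0.08 (adjusted p = 0.00287) without replicate 3, and the lines gave 1.53, 1.58, 1.62 and 1.51.

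AT1G48770 followed the same order, with wild type replicates 1 to 3 at 1.56, 1.36 and 2.22 log2 and the transgenic arrays at 2.52 to 3.51. Its difference was 1.42 ± 0.19 (adjusted p = 0.152), and 1.65 ± 0.13 with adjusted p = 0.0331 without replicate 3. The AtNF-YB lines gave 1.78 and 1.57, and the CBF4 lines 1.29 and 1.04. Both probe sets are under the median brightness of 4.06 log2, so the size of these differences depends on the floor.

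AT5G20000 was the only brighter probe set that fell without replicate 3. Wild type read 6.65, 6.67 and, for replicate 3, 6.19 log2, and the transgenic arrays 6 to 6.36. The array labelled replicate 3 lay within the transgenic range. The difference was −0.28 ± 0.11 with all arrays (adjusted p = 1) and −0.44 ± 0.04 without replicate 3 (adjusted p = 0.0373). The dim AT5G17820 was at the floor on all 8 transgenic arrays, against 2.87, 2.37 and 0.98 log2 on wild type, and at −1.66 ± 0.12 without replicate 3 (adjusted p = 0.0224). AT3G03670, AT3G30430, AT3G42140, AT3G48770 and AT5G09280 were of the same kind, with the transgenic arrays at 0.93 to 1.26 log2. The floor hides the spread of arrays held at it, so the standard errors and p-values of these dim genes do not measure that spread. Leaving out the dim probe sets as well as replicate 3 left 8 calls of 9687 probe sets, all higher: COR15B on 2 probe sets, COR15A, KIN2, AT4G15450 and 3 without a gene name. In the main fit 8 of 8 also differed between the constructs, against 0.31% of all plant probe sets. The mean over all lines includes the CBF4 lines, so this overlap is partly built in.

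**Figure D5:**
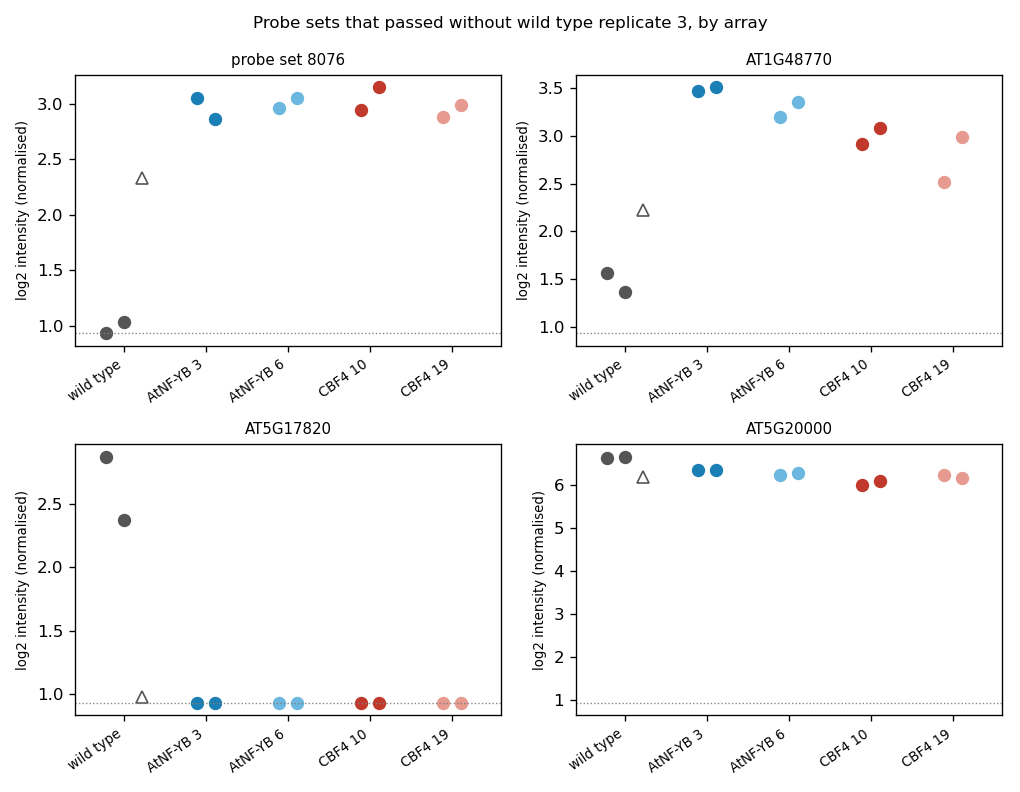
Normalised log2 intensity by array of 4 probe sets that passed without wild type replicate 3 (open triangle); filled circles are the other arrays, the dotted line is the floor of 0.93, and the vertical scales differ. MRT3702_8076C.2_at and AT1G48770 are higher on all 8 transgenic arrays, with replicate 3 at 2.33 and 2.22 between the groups, while on AT5G20000 replicate 3 is at 6.19, within the transgenic range.

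The transgenic lines were also compared with each other. Between the CBF4 and AtNF-YB lines 60 probe sets passed (0.31%), and 25 passed the F test of differences among the 4 lines (0.129%), with 59 and 27 when wild type replicate 3 was left out of the fit, against 4 for the mean of all lines against wild type. These comparisons differ in precision, with 4 arrays against 4 in the first and 8 against 3 in the last, so the counts are given side by side and were not tested against each other.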

How the data were processed

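The authors deposited probe set intensities on a linear scale (13.4% of plant values below 0) for 11 Affymetrix arrays, 1 per RNA pool; how probes were summarised, background corrected and scaled is not stated. Per the labels' protocols, RNA was isolated with RNeasy and amplified with MessageAmp. Of 19658 rows, 284 controls were left out. The other 19374 (19371 plant, 3 vector) were quantile normalised, floored at the 20th percentile (1.9 units) and put on log2; 1487 were at the floor on all arrays.

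limma (lmFit, eBayes; two-sided) fitted 5 line groups without a block (6 residual degrees of freedom). The main contrast was the mean of the 4 line coefficients minus wild type. A shared change passed at 0.05, had 1 sign in all lines, and had all 8 transgenic arrays beyond wild type. Members and lists were chosen with earlier results of these data known. The series text calls replicates biological. In the main fit p-values measure the spread between pools of the same line or of wild type, and not the spread between lines. Where arrays are held at the floor, the floor hides that spread.

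Named genes: up to 15 per direction among bright shared changes or, failing 10, the 10 of lowest p meeting the remaining conditions; up to 3 per list; calls without wild type replicate 3 were added after their values were seen. A probe set was bright where its higher side reached 4.06 log2, the median. The annotation named 11598 probe sets with 1 gene; 11547 matched RefSeq (TAIR10.1) by gene ID, covering 11320 loci, with the highest-mean probe set per gene. Of the 46 lists and families 29 had a measured member. The procedure was tested on simulated data. No array batch is labelled. No sequence or coordinates were used here. Python 3.11.15 with matplotlib 3.10.9 drew the plots; limma 3.58.1 and statmod 1.5.0 ran in R 4.3.3.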

Additional observations from a re-analysis of the deposited data

Results flagged for a closer look

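Several genes whose mean over all lines was reported differed between the constructs when CBF4 was set directly against AtNF-YB (limma, adjusted p below 0.05). The CBF4 lines were higher by 1.83 log2 for KIN2, by 4.37 and 3.49 on the COR15B probe sets and by 4.59 for COR15A. Among probe sets without a gene name the values were 6.04 for MRT3702_23907C.2_at, 3.13 for MRT3702_12660C.2_at and −0.45 for MRT3702_11388C.2_at. AT2G16220 gave 0.78, AT1G31550 −0.56 and APS3 −0.77.

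Single transgenic arrays stood far from the other 7 for some genes. E9 was at 0.98 log2 on AtNF-YB line 6 replicate 1, where the median of the transgenic arrays was 7.82. AT3G02480, a late embryogenesis abundant-like gene, was at 6.04 on CBF4 line 19 replicate 2 against a median of 2.92; wild type spanned 1.33 to 7.89. EULS3 was at 4.94 on AtNF-YB line 3 replicate 2 and LEA18 at 2.77 on CBF4 line 10 replicate 2. For 5 dim probe sets the other arrays were at or near the floor: AT3G03670 at 1.19 on CBF4 line 19 replicate 2, AT3G30430 at 1.26 on AtNF-YB line 3 replicate 2, AT3G42140 at 1.12 on CBF4 line 19 replicate 1, and MRT3702_14149C.2_at at 1.15 and AT5G09280 at 1.21 on AtNF-YB line 3 replicate 1. These arrays were picked by Dixon's test, which sets the gap to the nearest array against the whole range of the group; at the level used it picks about 1 in 20 groups by construction, where values are normal.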

How the results depend on the processing

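The count of 4 probe sets that passed was 0 with the 8 transgenic arrays pooled without lines (limma; 665 at an unadjusted p below 0.05) and with line as a random block (1290), 1 on unscaled values, 7 with a trended variance, 9 with array weights or arrays centred on their medians, 11 with a floor at the 40th percentile or dim probe sets left out, and 10 and 15 with AtNF-YB line 3 or 6 left out. Leaving out 1 array gave 1 to 145 calls (6 to 17 bright ones where a transgenic array was left out, 145 without AtNF-YB line 3 replicate 1). The number of shared changes, 1 as reported, was 0 in the pooled and random-block fits, 2 with a common 75th percentile, the higher floor or a trended variance, 3 with array weights or centred medians, 4 and 5 with AtNF-YB line 3 or 6 left out, and 1 to 16 with 1 array left out. MRT3702_12660C.2_at was among them in 20 of 28 alternatives; it was not on unscaled values, with centred medians, in the pooled, random-block and replicate-block fits, or without wild type replicate 1, wild type replicate 2 or CBF4 line 10. Calls between constructs (60) were 9 on unscaled values, 37 with centred medians and 44 to 240 with 1 array left out; those among lines (25) were 1, 12 and 22 to 221, and 13 without a floor and 44 without dim probe sets. With replicate 3 of wild type and dim probe sets both left out, an alternative chosen after seeing the data, the 4 counts were 8, 5, 100 and 38. The causes were not tested. The up or down split of calls was 8 and 1 with centred medians and 0 and 1 on unscaled values.

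Replicate numbers are shared between lines but nothing says they mark a batch: same-numbered arrays deviated together at r = −0.469 to 0.414, with 3 of 10 pairs over 0.1, and 5 of 10 arrays correlated best with their own number. Wild type replicate 3 is the only array with that number, so a replicate block fits it exactly and also takes it out of the wild type mean. COR15B was at 2.9 ± 0.1 with the block and 2.89 ± 0.1 without that array. Under a replicate block the 4 counts were 3, 1, 21 and 7, but COR15B was the only one of the 4 calls that held (adjusted p = 0.0163). The adjusted p was 0.056 for KIN2, 0.0945 for MRT3702_12660C.2_at and 0.158 for MRT3702_11388C.2_at in limma, and the 1 shared change was another probe set.

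Directions turned for E9 (0.3 with the replicate block and with replicate 3 of wild type and dim probe sets left out, 0.38 without AtNF-YB line 6, −1.42 to 0.3 with 1 array left out, 0.02 of these without AtNF-YB line 6 replicate 1 and 0.3 without wild type replicate 3), ATGSTF13 (0.07 with the replicate block, −0.75 to 0.07 with 1 array left out), AT2G29500 (−0.06 without AtNF-YB line 3), MRT3702_3545C.2_at (−0.07 without CBF4 line 19), and on unscaled values AT1G47400 (−0.01), PSBW and LHCB4.2 (−0.02 each). No other named gene turned in the 28 alternatives run. The 3 wild type arrays limit the precision, and differences of probe sets near the floor are understated.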

Other observations

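MRT3702_3545C.2_at, a dim probe set without a gene name, read 2.81 to 3.52 log2 on the 4 CBF4 arrays and 3.07 in wild type replicate 3, against 0.93 to 0.97 on the 4 AtNF-YB arrays and wild type replicates 1 and 2. It was noticed after its values were seen. On KIN2 and COR15A wild type replicate 3 read 8.49 and 5.45, below the CBF4 arrays at 10.21 to 10.31 and 10.34 to 10.5. On MRT3702_12660C.2_at and MRT3702_23907C.2_at it read 6.08 and 2.68, below the CBF4 arrays at 9.25 to 9.89 and 7.98 to 8.59. On COR15B the array labelled replicate 3 read 6.81 and 5.63 on the 2 probe sets, where wild type replicates 1 and 2 read 5.42 and 5.47, and 4.83 and 4.82; the AtNF-YB arrays were at 6.34 to 6.77 and 5.41 to 5.67. AT1G36600 and MRT3702_18197C.2_at were the widest separations among dim probe sets, with a gap of 0.8 and 0.78 log2 between the nearest transgenic and wild type arrays. AT1G36600 was at the floor on all 3 wild type arrays and at 1.73 to 2.8 on the transgenic ones (adjusted p = 0.0996 in limma), and MRT3702_18197C.2_at was at 2.92 to 3.48 on wild type and 0.93 to 2.14 on transgenic arrays (adjusted p = 0.0517).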
